A study of Mus musculus with 19 samples.

Results

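The 10 genes described here encode precursors of neuropeptides used by cortical neurons, and they were followed across the treatment groups of a mouse prefrontal cortex RNA-seq study: Cort, Sst, Npy, Vip, Cck, Cartpt, Crh, Penk, Pdyn and Tac1. They were taken by gene name from a deposited table of read counts for 57010 genes, and each name matched 1 row. All 10 passed the filter on low counts, as part of 17757 genes tested. The 19 libraries were made from poly(A) RNA of bulk medial prefrontal cortex of wild-type (WT) mice, whose sex, age and strain are not given in the sources used here. Control mice (n = 4, labelled replicates 1, 2, 4 and 5) had saline by gavage over 8 days and intraperitoneal saline over 5 days. LPS mice (n = 5) had lipopolysaccharide, a component of the bacterial cell wall that provokes systemic inflammation, injected at 1 mg/kg in the 5 days of injection. They were also gavaged over 8 days, without sedanolide. Sedanolide mice (n = 5) had sedanolide, a phthalide known from celery, at 20 mg/kg by gavage for 8 days. They were also injected over 5 days, without LPS. Co-treated mice (n = 5) had both agents, with gavage begun 3 days ahead of LPS. The labels do not state whether each library is a different mouse; p-values therefore describe the spread between these libraries, which may be technical.

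Neuropeptides are cut from larger precursor proteins in dense-core vesicles and released alongside fast transmitters, and their mRNA is commonly used to mark neuron types. In cortex, somatostatin, vasoactive intestinal peptide, neuropeptide Y, cortistatin and corticotropin-releasing hormone are made mostly by GABA-releasing interneurons, while cholecystokinin is made by both interneurons and pyramidal cells. Enkephalin, dynorphin and tachykinin precursors are made by some cortical neurons and far more strongly by the projection neurons of the neighbouring striatum. Several of these genes are also expressed in the olfactory bulb, which lies just in front of the prefrontal cortex, and transcription of several follows neuronal activity through the cyclic AMP response element.

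Library totals ran from 19.08 to 24.32 M counts (M, mega), and levels are given as CPM, the counts for each M of the library total scaled by trimmed-mean (TMM) factors. Markers of cortical excitatory neurons were high in every library, with Camk2a at 1711 to 5868 CPM. Markers of the olfactory bulb stood apart in 7 of the 19 libraries: Cdhr1, a cadherin of mitral and tufted cells, was at 57.7 to 445 CPM in 2 control, 3 LPS and 2 sedanolide libraries and at 2.29 to 9.92 CPM in the other 12, here called bulb-poor. No co-treated library was among the 7. A bulb index, the mean log2 CPM of Eomes, Cdhr1, Doc2g and Shisa3, was -0.46 ± 0.32 (SD) in co-treated, 3.17 ± 2.82 in LPS, 1.57 ± 3.20 in sedanolide and 3.47 ± 3.61 in control libraries. By exact permutation tests (two-sided, adjusted over 10 tests) the index differed by -3.62 between co-treated and LPS libraries (p = 0.00794, the smallest the design allows; adjusted p = 0.0397) and by -3.93 between co-treated and control libraries (p = 0.00794, adjusted p = 0.0397). Leaving out 1 co-treated library gave adjusted p-values of 0.143 to 0.190 in these permutation tests. Against control this raises the smallest p that can be reached, but against LPS it stays at 0.00794. The index of LPS and control libraries differed by -0.30 (exact permutation p = 0.849). A striatal index (Adora2a, Gpr6, Rgs9 and Drd1) ran from 1.87 to 3.61 and was highest in LPS replicate 1. The summed level of 9 hypothalamic genes was 1.81 to 4.29 CPM in all libraries, and Pmch, Hcrt, Avp and Oxt were too low to be tested. The acute-phase gene Saa3 was at 106 to 206 CPM in LPS, 118 to 168 CPM in co-treated and under 0.1 CPM in the other libraries.

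The 10 precursors spanned a wide range of mRNA level. Per kilobase of exon (GENCODE M21 gene models), Sst was highest with a median of 282 CPM per kb over the 19 libraries, followed by Cck at 258, Npy at 108, Penk at 22.5, Vip at 15.9, Cort at 11.6, Pdyn at 10.8, Tac1 at 5.49, Crh at 4.58 and Cartpt at 2.46. The ranges of every pair of neighbours in this order overlapped. Within libraries, Cck was above Npy, Npy above Penk, Pdyn above Tac1 and Crh above Cartpt in 19 of 19. Sst was above Cck in 11 of 19, Cort above Pdyn in 11 and Tac1 above Crh in 12, so these neighbours held no fixed order.

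**Figure D1:**
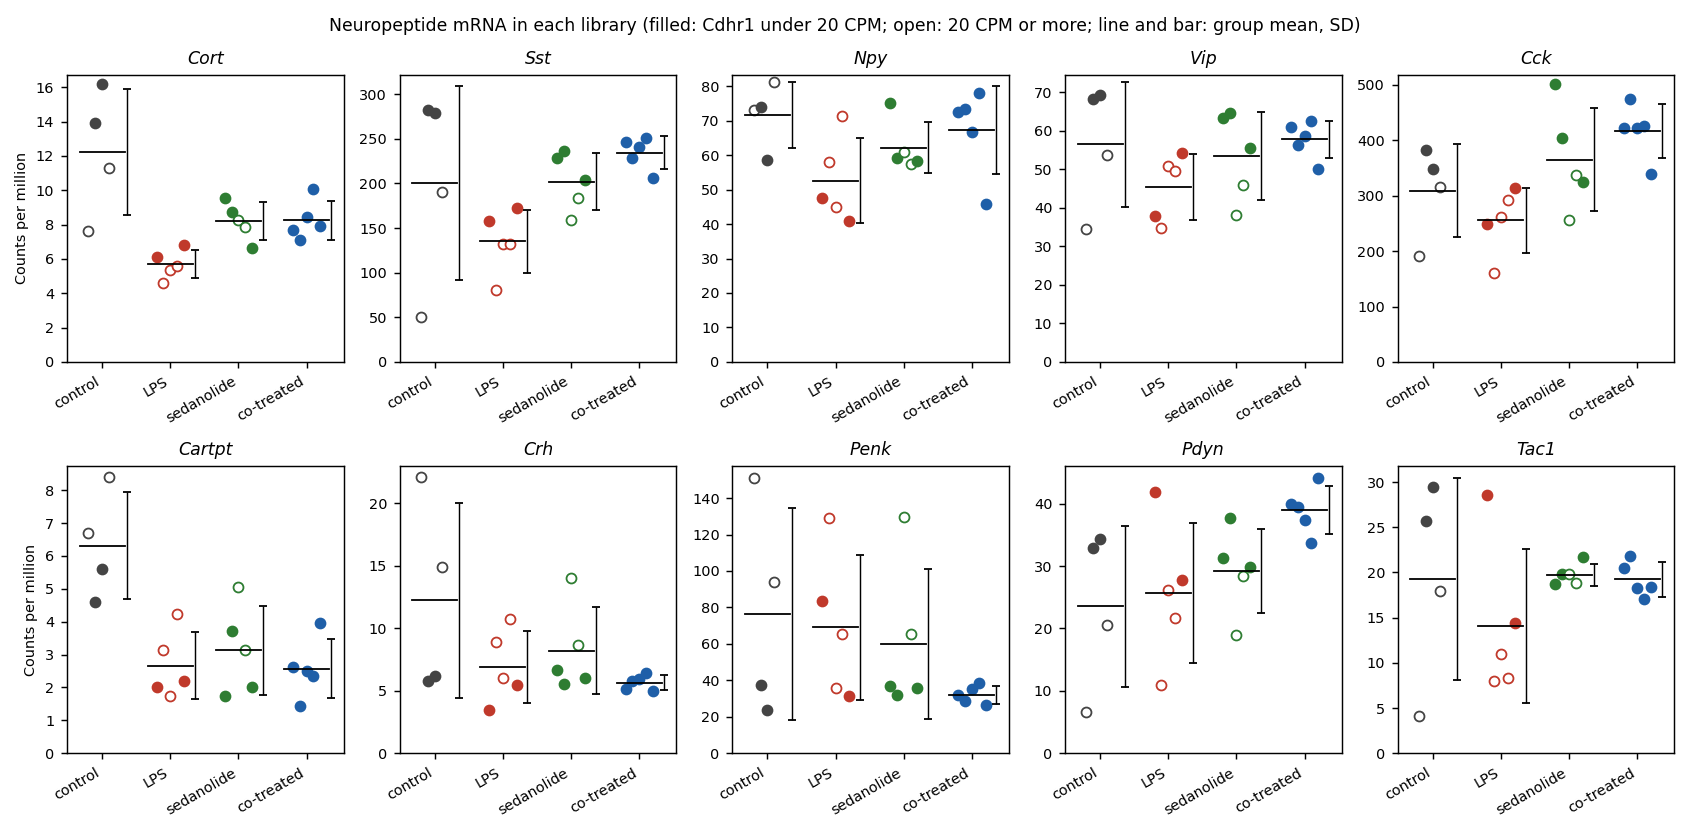
CPM of each of the 10 neuropeptide genes (vertical axes, from 0) in each library of the 4 groups (horizontal axes). Filled points are the 12 bulb-poor libraries, open points the 7 with more Cdhr1, and lines with bars are group means with SD. The 5 LPS libraries lie below all 4 control libraries for Cort and for Cartpt, and Penk and Crh are highest in open points.

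Of the 10 genes, 2 were called lower in LPS than in control libraries, Cort and Cartpt, and none was called higher (edgeR quasi-likelihood test, adjusted p below 0.05). Of all genes tested, 10.9% were called in this comparison, and more of them higher (8.47%) than lower (2.44%). The fitted change was negative for 9 of the 10 members, with a median log2 fold change of -0.45 against -0.0034 over all genes tested. An unadjusted p under 0.05 was reached by 4 members and by 4306 of the 17757 genes tested. In other tests, limma-voom with sample weights called 4 lower (Cort, Npy, Cartpt and Crh; 25.4% of all genes called) and DESeq2 the same 2 as edgeR (10.3%). In bulk tissue, fewer cells of a type and less mRNA per cell cannot be told apart.

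Cort encodes cortistatin, a somatostatin relative that binds somatostatin receptors, depresses cortical activity and promotes slow-wave sleep (ENSMUSG00000028971, chr4:149209491-149211220, minus strand, as the deposited table gives it, genome build not given in the sources used here). It was at 7.61, 13.9, 16.2 and 11.3 CPM in control replicates 1, 2, 4 and 5 and at 6.11, 4.61, 5.35, 5.60 and 6.81 CPM in LPS replicates 1 to 5. Every LPS library was below every control library, and the lowest control was replicate 1, the library with the highest bulb index. The group means were 12.2 ± 3.68 and 5.69 ± 0.825 CPM (± SD). Cort fell 2.15-fold in the fit (log2 fold change -1.10, SE 0.18, adjusted p = 1.75e-04). The call was kept in 11 of 11 alternative settings and in 19 of 19 fits that left out 1 library, with log2 fold changes of -1.28 to -0.94.

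Cartpt encodes the precursor of CART peptides, which act on feeding, reward and stress responses (chr13:100034997-100037599, minus strand, same table). It was the least abundant member, at 6.69, 4.59, 5.60 and 8.39 CPM in control and 2.02, 3.14, 1.73, 4.24 and 2.20 CPM in LPS libraries, and the groups did not overlap. The means were 6.32 ± 1.63 and 2.67 ± 1.03 CPM (± SD). Cartpt fell 2.38-fold in the fit (log2 fold change -1.25, SE 0.32, adjusted p = 0.0131). The call was lost without control replicate 5, the highest library (log2 fold change -1.08, adjusted p = 0.0648), and in the bulb-poor libraries alone (-1.29, adjusted p = 0.0815). Among all genes tested, 2.80% had every LPS library below every control library, and Cort and Cartpt were the members that did.

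The promoters of these genes can be set beside the activity-regulated genes described further on. RefSeq promoter windows on GRCm38.p6, running from 250 bases before to 50 after a start site, were at hand for 8 of the 10 members (9 windows, as Pdyn has 2), and none was used for Penk and Crh. The complete cyclic AMP response element, TGACGTCA on either strand, was found in Sst and Cartpt, 2 of 8 genes and 2 of 9 windows, against 1.79% of 32851 promoter windows. Its half-site, TGACG on either strand, was found in 6 of 8 genes (Cort, Tac1, Cck, Vip, Cartpt and Sst) and 6 of 9 windows, against 20.8% of windows. Each complete element holds the half-site on both strands. The stretches below are printed 5′ to 3′ on the gene's strand for Cort and Cartpt, which fell after LPS, and for Sst and Vip, which were lower in the bulb-poor LPS libraries. Capitals mark the complete element in Cartpt and Sst and the half-site in Cort and Vip, which in Cort is on the opposite strand. They begin 18 bases before the start site in Cort, 112 in Cartpt, 48 in Sst and 79 in Vip. A match is a description of these letters, not a site or a cause.
Cort, chr4:149126764-149126841, minus strand: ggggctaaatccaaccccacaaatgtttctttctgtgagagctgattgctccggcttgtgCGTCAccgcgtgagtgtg
Cartpt, chr13:99900728-99900855, minus strand: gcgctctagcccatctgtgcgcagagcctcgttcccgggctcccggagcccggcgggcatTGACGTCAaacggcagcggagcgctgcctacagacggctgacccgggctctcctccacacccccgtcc
Sst, chr16:23890845-23890952, minus strand: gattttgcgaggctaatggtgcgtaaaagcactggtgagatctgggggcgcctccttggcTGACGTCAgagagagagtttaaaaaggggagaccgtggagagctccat
Vip, chr10:5639079-5639203, plus strand: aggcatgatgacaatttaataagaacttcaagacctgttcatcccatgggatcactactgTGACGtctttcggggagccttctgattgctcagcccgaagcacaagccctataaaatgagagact

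Sst, the somatostatin precursor and the marker of dendrite-targeting interneurons (chr16:23708323-23709708, minus strand), was at 50.2, 282, 279 and 190.0 CPM in control and 158, 80.7, 133, 132 and 172 CPM in LPS libraries. Control replicates 2 and 4 were the highest of all 19 libraries and control replicate 1 the lowest, so the groups overlapped. The fitted difference was -0.57, SE 0.32 on the log2 scale and did not pass the test (adjusted p = 0.298, 95% confidence interval -1.25 to 0.11). This rested on 1 library: without control replicate 1 it was -0.89 with an adjusted p of 0.00288. Vip, the marker of interneurons that inhibit other interneurons (chr10:5589218-5597617, plus strand), was at 34.5, 68.3, 69.1 and 53.7 CPM in control and 37.8, 34.8, 50.7, 49.6 and 54.1 CPM in LPS libraries. Control replicate 1 was again the lowest control, and the difference of -0.31, SE 0.19 did not pass (adjusted p = 0.324).

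Npy encodes neuropeptide Y, a peptide of neurogliaform and of some somatostatin interneurons (chr6:49799690-49806487, plus strand). It was at 73.0, 73.8, 58.6 and 81.3 CPM in control and 47.6, 58.1, 44.9, 71.3 and 40.8 CPM in LPS libraries, and the 2 groups overlapped through LPS replicate 4. The difference of -0.45, SE 0.16 had an unadjusted p of 0.0113 and an adjusted p of 0.0811; without LPS replicate 4 it was -0.58 with an adjusted p of 0.0151. Cck encodes cholecystokinin, made by basket cells and pyramidal cells (chr9:121318890-121324760, minus strand). It was at 191, 383, 348 and 316 CPM in control and 249, 160.4, 262, 292 and 315 CPM in LPS libraries, a fitted difference of -0.27, SE 0.21 (adjusted p = 0.456). The range of LPS libraries lay inside the range of controls except for LPS replicate 2.

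Crh encodes corticotropin-releasing hormone, which starts the endocrine stress response in the hypothalamus and is made by scattered interneurons in cortex (chr3:19747565-19749560, minus strand). It was at 22.1, 5.75, 6.19 and 14.9 CPM in control and 3.48, 8.87, 6.05, 10.7 and 5.47 CPM in LPS libraries, with control replicates 1 and 5, both rich in bulb markers, the highest controls. The difference of -0.83, SE 0.37 had an adjusted p of 0.181. Penk, the enkephalin precursor (chr4:4133531-4138819, minus strand), was at 151, 37.5, 23.7 and 94.0 CPM in control and 83.5, 129, 35.7, 65.4 and 31.7 CPM in LPS libraries, a difference of -0.15, SE 0.52 (adjusted p = 0.902). Pdyn, the dynorphin precursor (chr2:129528485-129541764, minus strand), was at 6.58, 32.9, 34.3 and 20.5 CPM in control and 41.9, 11.0, 26.2, 21.7 and 27.8 CPM in LPS libraries, and it was the 1 member with a positive fitted difference, 0.13, SE 0.37 (adjusted p = 0.876). Tac1, the substance P precursor (chr6:7554879-7565834, plus strand), was at 4.10, 25.7, 29.4 and 17.9 CPM in control and 28.6, 7.97, 11.0, 8.37 and 14.4 CPM in LPS libraries and differed by -0.45, SE 0.40 (adjusted p = 0.538). For these 4 genes the libraries of a group spread widely, and LPS and control overlapped.

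**Figure D2:**
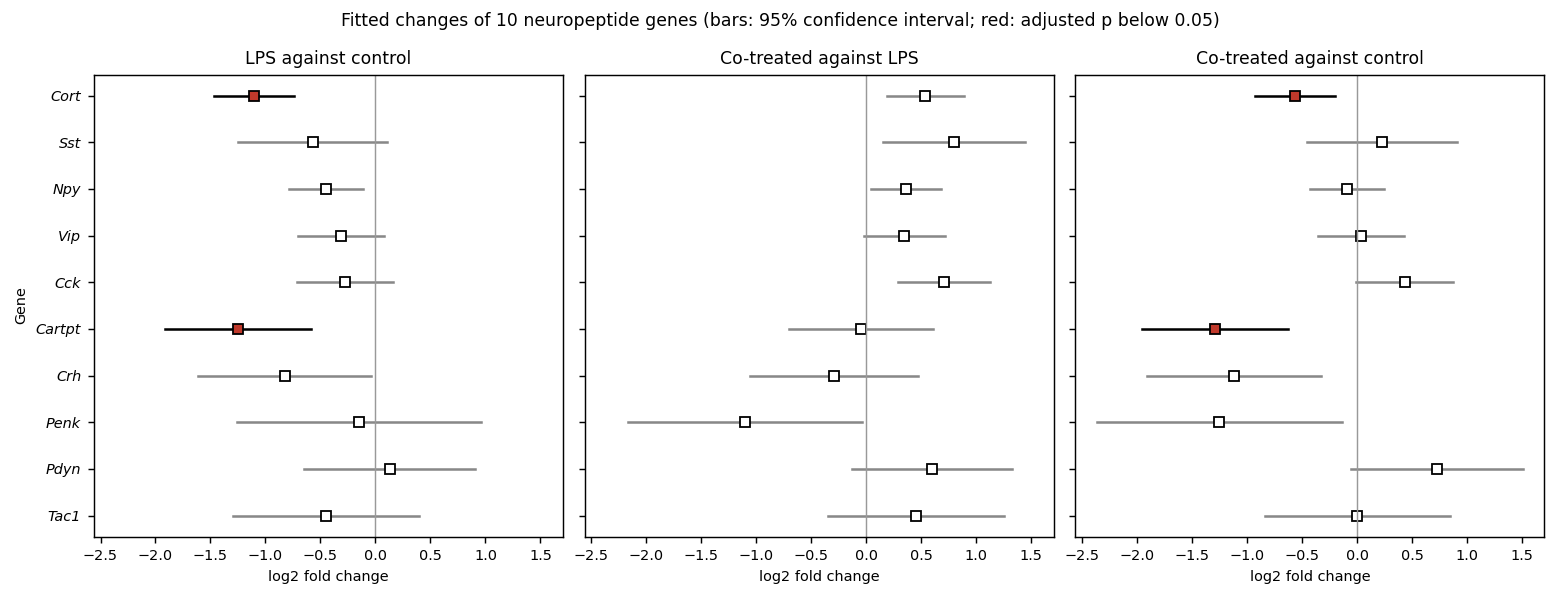
Fitted log2 fold changes (horizontal axes) of the 10 genes (vertical axis) for LPS against control, co-treated against LPS and co-treated against control. Bars are 95% confidence intervals, and red squares are genes with an adjusted p below 0.05: Cort and Cartpt in both panels against control, and none between co-treated and LPS.

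No member was called between co-treated and LPS libraries by edgeR, where 1.97% of all genes tested were. An unadjusted p under 0.05 was reached by 5 of the 10 and by 3508 of the 17757 genes tested. In other tests, limma-voom with sample weights called 4 higher (Cort, Sst, Npy and Cck; 14.9% of all genes) and DESeq2 called 2 higher (Cort and Cck; 4.97%). In 3 members, Cort, Sst and Cck, every co-treated library was above every LPS library, as in 3.33% of all genes tested. Cort was at 7.70, 7.13, 8.42, 10.1 and 7.93 CPM in co-treated replicates 1 to 5, all above the LPS maximum of 6.81 (log2 difference 0.54, SE 0.17, adjusted p = 0.101). Sst was at 246, 228, 241, 251 and 206 CPM, between the LPS libraries and control replicates 2 and 4 (log2 difference 0.80, SE 0.31, adjusted p = 0.172). Cck was at 422, 475, 422, 425 and 339.6 CPM, with 4 of the 5 above every control library (log2 difference from LPS 0.71, SE 0.20, adjusted p = 0.0721). Without control replicate 1, which is in neither group, all 3 were called, with adjusted p-values of 0.0345, 0.013 and 0.0316 (3.05% of all genes). Their log2 differences stayed at 0.54, 0.80 and 0.71 in that fit. Cort, Sst and Cck are also genes whose level fell as bulb markers rose, and co-treated libraries had the lower bulb index. With the index as a covariate the 3 differences shrank to 0.32, 0.35 and 0.41, with adjusted p-values of 0.496, 0.706 and 0.396. All co-treated libraries were bulb-poor, so co-treatment and bulb content cannot be fully told apart, and the cause was not tested.

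The other members differed less clearly between co-treated and LPS libraries. Npy was at 72.6, 73.5, 66.8, 78.0 and 45.7 CPM in co-treated libraries, of which replicates 3 and 5 lay within the LPS range (log2 difference 0.36, SE 0.15, adjusted p = 0.203). Vip was at 61.0, 56.2, 58.6, 62.5 and 50.1 CPM (log2 difference 0.35, SE 0.18, adjusted p = 0.280). Cartpt was at 2.61, 1.45, 2.49, 2.34 and 3.96 CPM, overlapping the LPS libraries, with a difference of -0.047 and a 95% confidence interval of -0.70 to 0.61. Penk, at 31.9, 28.7, 35.5, 38.5 and 26.3 CPM, varied far less among co-treated than among LPS libraries (SD 4.93 against 39.8 CPM; log2 difference -1.10, SE 0.50, adjusted p = 0.238). Pdyn was at 39.9, 39.4, 37.4, 33.6 and 44.2 CPM, above every LPS library but replicate 1, and Tac1 was at 20.5, 21.8, 18.3, 17.1 and 18.4 CPM. Crh was at 5.13, 5.81, 5.93, 6.41 and 5.00 CPM, inside the LPS range. Pdyn and Tac1 differed from LPS by 0.60 and 0.45, and Crh by -0.29, with adjusted p-values of 0.333, 0.504 and 0.662.

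Cort and Cartpt were also the members called lower in co-treated than in control libraries, where 11.1% of all genes tested were called. Cort differed by -0.57, SE 0.17 on the log2 scale (adjusted p = 0.0419), and its ranges overlapped because control replicate 1 was as low as the co-treated libraries. That call was lost in 8 of 19 fits leaving out 1 library, with adjusted p-values up to 0.119. Cartpt fell 2.45-fold (log2 fold change -1.29, SE 0.32, adjusted p = 0.0144) with no overlap, as 4.93% of all genes tested had every co-treated library below every control. The Cartpt call was lost without control replicate 5 (-1.13, adjusted p = 0.0648), with the bulb index as a covariate and in the bulb-poor libraries alone (-0.98, adjusted p = 0.0983). By limma-voom 5 members were called (Cort, Cartpt and Crh lower, Cck and Pdyn higher; 26.9% of all genes). Crh and Penk, at log2 differences of -1.12, SE 0.38 and -1.25, SE 0.53, did not pass (adjusted p = 0.0622 and 0.129). These comparisons share control or LPS libraries, so their values are not independent of each other.

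Sedanolide without LPS gave no call among the members by edgeR, where 5.31% of all genes tested were called. An unadjusted p under 0.05 was reached by 4414 of the 17757 genes tested and by 2 members. These were Cort, at 9.56, 8.76, 8.27, 7.85 and 6.62 CPM (log2 difference from control -0.57, SE 0.17, adjusted p = 0.0575), and Cartpt, at 1.74, 3.72, 5.07, 3.15 and 2.01 CPM (-1.01, SE 0.31, adjusted p = 0.0637). Both were called lower by limma-voom (24.8% of all genes called) and by DESeq2 (12.2%). Sst in sedanolide libraries, at 229, 236, 159, 183 and 203 CPM, differed from control by 0.014, with a 95% confidence interval of -0.67 to 0.69. Cck was at 502, 405, 256, 337 and 325 CPM, with replicate 1 the highest of all 19 libraries, and the difference of 0.24 had an interval of -0.20 to 0.68. Npy was at 75.1, 59.2, 61.0, 57.4 and 58.2, Vip at 63.2, 64.7, 38.1, 45.8 and 55.5 and Pdyn at 31.3, 37.7, 18.9, 28.4 and 29.8 CPM, with log2 differences of -0.21, -0.077 and 0.31. Crh was at 6.68, 5.58, 14.1, 8.69 and 6.03 and Penk at 36.8, 31.9, 129, 65.3 and 35.5 CPM, each highest in replicate 3, the sedanolide library richest in bulb markers. Tac1 was nearly level, at 18.7, 19.8, 19.8, 18.8 and 21.7 CPM. The control libraries had ranges that overlapped these values for every member. Between co-treated and sedanolide libraries no member was called by edgeR (5.58% of all genes called), limma-voom (19.8%) or DESeq2 (5.61%). By edgeR no member had an unadjusted p under 0.05, against 2877 of the 17757 genes tested. Cort there differed by 0.007, with a 95% confidence interval of -0.34 to 0.35.

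The difference between the LPS change with sedanolide and without it was tested as an interaction, which was called for Cort among the members and for 0.586% of all genes tested. Cort was lower by 2.15-fold after LPS alone, while its co-treated and sedanolide means were 8.25 ± 1.12 and 8.21 ± 1.09 CPM. Both lay below the control mean of 12.2 ± 3.68 CPM, each with a fitted log2 difference of -0.57. That difference was called for co-treated libraries (adjusted p = 0.0419) and not for sedanolide libraries (adjusted p = 0.0575). The interaction was 1.11, SE 0.24 on the log2 scale (adjusted p = 0.0418). It stayed below 0.05 in 6 of 19 fits that left out 1 library and was between 0.0509 and 0.0968 in the other 13, with values of 0.95 to 1.28 over all alternatives. The call was also lost in the bulb-poor libraries alone (1.25, adjusted p = 0.0745) and with the replicate number as a block (1.07, adjusted p = 0.150). By limma-voom 4 members were called, each positive (Cort, Npy, Cck and Cartpt; 21.6% of all genes). In 9 of the 10 members the interaction was positive, with a median of 0.44 against -0.021 over all genes tested. Several members varied together between libraries, so these signs are not independent of each other. By edgeR 3 members had an unadjusted p under 0.05, against 2821 of the 17757 genes tested. Npy and Cartpt had unadjusted p-values of 0.0193 and 0.0425 (log2 0.56 and 0.96, adjusted p = 0.223 and 0.294).

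Bulb content moved with nearly all of these genes. In a fit of each gene on the bulb index with a mean per group, 9 of the 10 members had a slope that passed the test, against 31.3% of all genes tested. Penk, Crh and Cartpt rose with the index, by 0.23, SE 0.044, 0.21, SE 0.022 and 0.11, SE 0.035 in log2 units per unit of index (adjusted p = 7.74e-04, 6.97e-07 and 0.0212). Pdyn, Tac1 and Sst fell most steeply, with slopes of -0.17, -0.15 and -0.13, and Cck, Vip and Cort fell with slopes of -0.082, -0.079 and -0.062. Npy was flat (slope 0.030, SE 0.021, adjusted p = 0.301). The Cort slope was lost without control replicate 1 (adjusted p = 0.134) or 4 (0.0851), and the Cartpt slope without sedanolide replicate 3 (0.0994).

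Crh was at 6.05 to 22.1 CPM in the 7 libraries rich in bulb markers and at 3.48 to 6.68 CPM in the 12 bulb-poor ones, with control replicate 1 the highest. Penk had medians of 94.0 and 33.7 CPM in the 2 sets, but LPS replicate 1 reached 83.5 CPM while bulb-poor. That library also had Tac1 at 28.6 and Pdyn at 41.9 CPM, each the highest of the LPS group, and the highest striatal index of all libraries. Pdyn was at 6.58 to 28.4 CPM in the libraries rich in bulb markers and 27.8 to 44.2 CPM in the bulb-poor ones, and Sst at 50.2 to 190.0 and 157.7 to 282 CPM. With both indices in the fit, no member had a striatal slope that passed by edgeR, where 0.924% of all genes did. An unadjusted p under 0.05 was reached by 4 members and by 3731 of the 17757 genes tested. The steepest striatal slopes were those of Tac1 at 0.83, SE 0.236 (adjusted p = 0.0723) and Penk at 0.71, SE 0.263 (0.142).

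**Figure D3:**
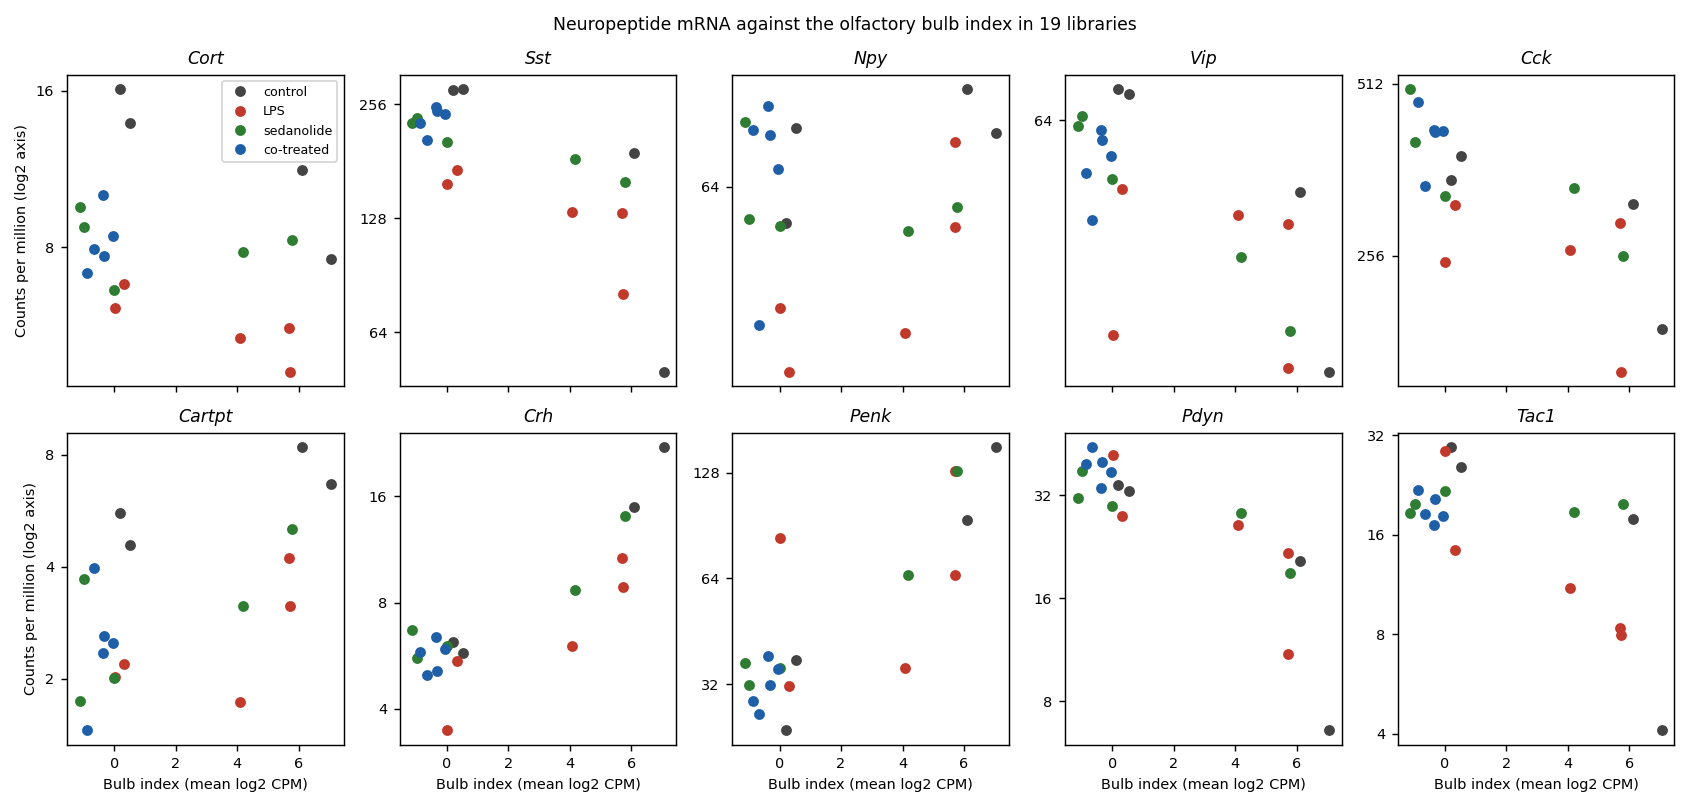
CPM of each gene (vertical axes, log2 scale) against the bulb index, the mean log2 CPM of 4 bulb markers (horizontal axes), in 19 libraries coloured by group. Crh and Penk climb to the right, Sst, Pdyn and Tac1 descend, and for Cort the LPS libraries sit low on both sides of the index.

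Taking bulb content into account changed which members were called. With the bulb index as a covariate, LPS lowered Cort (-1.10, SE 0.14, adjusted p = 1.24e-05), Cartpt (-1.22, SE 0.25, adjusted p = 0.00181) and also Crh (-0.65, SE 0.15, adjusted p = 0.00606), when 15.7% of all genes tested were called. Npy was then at -0.44 (adjusted p = 0.0506). Between co-treated and LPS libraries no member was called in that fit (0.597% of all genes). Between co-treated and control libraries Cort alone was called (-0.78, adjusted p = 0.00381; 6.08% of all genes), while the Crh and Penk differences shrank to -0.095 and -0.029 and that of Cartpt to -0.83 (adjusted p = 0.0971). The Cort interaction was 0.98 (adjusted p = 0.0240; 1.51% of all genes).

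The 12 bulb-poor libraries (2 control, 2 LPS, 3 sedanolide and 5 co-treated) brought out the somatostatin and VIP genes. In them Sst was at 282 and 279 CPM in control, 158 and 172 CPM in LPS, 229, 236 and 203 CPM in sedanolide and 206 to 251 CPM in co-treated libraries, so that LPS libraries were below all others. LPS lowered Sst (-0.79, SE 0.11, adjusted p = 5.28e-04), Cort (-1.24, SE 0.19, adjusted p = 9.96e-04) and Vip (-0.60, SE 0.15, adjusted p = 0.0263) in this subset, with 4.78% of all genes called. Sst was higher in co-treated than in LPS libraries (0.52, adjusted p = 0.0398; 0.197% of all genes), and its interaction was 0.88 (adjusted p = 0.0187; 0.113%). Cort was also lower in co-treated than in control libraries (-0.87, adjusted p = 0.00373; 3.46%). With 2 control and 2 LPS libraries these values rest on few samples. Penk, high in LPS replicate 1, turned from -0.15 to 0.89 after LPS in this subset (adjusted p = 0.189).

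How the members varied together was described with the group means subtracted, over 19 libraries that share the bulb gradient. Of 45 pairs, 23 correlated positively and 22 negatively. Sst and Pdyn (Pearson r = 0.92), Tac1 and Pdyn (0.90), and Vip and Cck (0.89) were the closest pairs, and Vip and Penk (-0.88) and Crh and Pdyn (-0.87) the most opposed. The gene most like each member was Jpt1 for Cort (r = 0.89), Efcab1 for Sst (0.97), Laptm4a for Npy (0.86), Ppp1r12a for Vip (0.94) and Kcnv1 for Cck (0.97). It was Zcchc12 for Cartpt (0.88), Cbln4 for Crh (0.98), Metrn for Penk (0.97), Rbp4 for Pdyn (0.98) and Dsg2 for Tac1 (0.93). Cort and Sst, the 2 genes of the somatostatin family, correlated at 0.84.

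Among 26 other neuropeptide and peptide-binding genes, of which 18 were tested, LPS lowered 3 and raised none, where 2.44% of all genes were lowered and 8.47% raised. Crhbp, which encodes the protein that binds and sequesters CRH, was at 27.2, 29.1, 32.9 and 32.2 CPM in control and 23.7, 20.1, 18.1, 21.2 and 18.1 CPM in LPS libraries, with no overlap (log2 fold change -0.58, SE 0.09, adjusted p = 2.30e-04). Pnoc, the nociceptin precursor of interneurons, fell from 8.05 ± 0.589 to 5.75 ± 0.440 CPM (-0.49, SE 0.12, adjusted p = 0.00868), a call lost in the bulb-poor libraries alone (adjusted p = 0.170). Nppc, the C-type natriuretic peptide precursor, fell from 5.29 ± 2.70 to 2.53 ± 0.610 CPM with overlapping ranges (-1.05, SE 0.31, adjusted p = 0.0315), and that call was lost in 6 of 19 fits leaving out 1 library. Between co-treated and LPS libraries 0 of 18 were called by edgeR (1.97% of all genes called), 5 by limma-voom, all higher (14.9% of all genes), and 5 by DESeq2, 3 higher and 2 lower (4.97%). By edgeR 8 of the 18 had an unadjusted p under 0.05, against 3508 of the 17757 genes tested. Crhbp then differed by 0.33, SE 0.09 (adjusted p = 0.0639) and Pnoc by 0.38, SE 0.11 (adjusted p = 0.0853). The median change of the 18 after LPS was -0.41. Trh, Nmb and Gal rose with the bulb index by 0.72, 0.76 and 0.86 log2 units per unit, and Trh and Nmb are also in a list of bulb genes. Vgf, a neurotrophin-inducible secretory precursor and the most abundant of the list, did not pass in either comparison (adjusted p = 0.547 and 0.379).

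Receptors of these peptides were measured for 20 genes, of which 18 were tested. After LPS 0 of 18 were called by edgeR (10.9% of all genes called), 6 by limma-voom (25.4% of all genes) and 1 by DESeq2 (10.3%). Between co-treated and LPS libraries 0 were called by edgeR (1.97% of all genes called), 1 by limma-voom (14.9% of all genes) and 1 by DESeq2 (4.97%). By edgeR 1 receptor had an unadjusted p under 0.05 after LPS, against 4306 of the 17757 genes tested. Between co-treated and LPS libraries 2 receptors did, against 3508 of the 17757. Cckbr, the cortical cholecystokinin receptor and the most abundant, was at 51.5 to 94.5 CPM over all libraries. Sedanolide libraries, where 5.31% of all genes were called, had 3 receptors higher than control: Sstr3 (0.47, SE 0.12), Sstr4 (0.69, SE 0.19) and the delta opioid receptor Oprd1 (0.64, SE 0.15), with adjusted p-values of 0.0275, 0.0417 and 0.0222. Sstr4 and Oprd1 overlapped with control. The bulb-poor libraries alone gave 0 such calls (4 at an unadjusted p under 0.05), but only 0.0451% of all genes were called there. The share of all genes at that unadjusted p was not counted in this subset. Of 18 genes of prohormone cleavage and dense-core vesicles, LPS lowered 1, where 10.9% of all genes were called. It was Qpct, the glutaminyl cyclase that forms N-terminal pyroglutamate (-0.54, SE 0.17, adjusted p = 0.0464), a call kept in 4 of 19 fits leaving out 1 library. The carboxypeptidase Cpe, the most abundant of the 18, was within 2080.4 to 3271 CPM.

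Interneuron identity genes were measured beside the peptides. After LPS, of 26 genes such as Gad1, Lhx6 and Pvalb, 0 were called by edgeR (10.9% of all genes called), 3 by limma-voom (25.4% of all genes) and 1 by DESeq2 (10.3%). By edgeR 2 of the 26 had an unadjusted p under 0.05, against 4306 of the 17757 genes tested. The median change of the 26 after LPS was -0.30, with 20 of 26 negative. Of these 26, 23 had a slope on the bulb index that passed (31.3% of all genes), 14 upward and 9 downward: the Dlx genes, Calb2 and Gad1 rose (Gad1 by 0.31), and Lhx6 and Satb1, genes of the lineage that gives somatostatin interneurons, fell with slopes of -0.13 and -0.13. In co-treated libraries, which are all bulb-poor, 2 of the 26, Gad2 and Adarb2, were lower than in control (-0.89, SE 0.26 and -1.09, SE 0.33, adjusted p = 0.0379 and 0.0439), where 11.1% of all genes were called. Among 18 excitatory identity genes, where 10.9% of all genes were called, LPS lowered 1, Ccn2, a marker of the deepest cortical layer (-0.82, SE 0.24, adjusted p = 0.0319). That call was lost in 4 of 11 alternative settings, the bulb-poor libraries among them, and in 5 of 19 fits leaving out 1 library (adjusted p up to 0.101). Of the 18, 2 were lower in sedanolide than in control libraries (5.31% of all genes called), Ccn2 among them (-1.45, SE 0.24, adjusted p = 0.00585).

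Genes switched on by neuronal activity changed with LPS and also with sedanolide alone. Of 24 such genes, 13 were lower in LPS than in control libraries and none was higher (median -0.71; 10.9% of all genes called). In sedanolide libraries 7 were lower than in control, Fos, Junb, Egr2, Nr4a1, Nr4a3, Dusp1 and Btg2, and 2 were higher, Nptx2 and Homer1 (median -0.45; 5.31% of all genes). Against LPS libraries, 10 were higher after co-treatment and none was lower (median 0.51; 1.97% of all genes), while against control 4 were lower, Fos, Jun, Nr4a1 and Dusp1, and 2 higher, Dusp6 and Homer1 (median -0.18; 11.1%). The interaction was called in 8, each positive (0.586% of all genes). Egr2, a zinc finger transcription factor induced within minutes of activity, was at 28.4, 28.5, 24.2 and 30.1 CPM in control, 8.84, 10.6, 8.18, 12.6 and 9.97 CPM in LPS, 20.5, 19.9, 15.7, 19.2 and 20.6 CPM in sedanolide and 26.0, 29.3, 26.6, 24.2 and 22.6 CPM in co-treated libraries. Sedanolide libraries lay between LPS and control libraries without overlap (-0.54, SE 0.11 against control, adjusted p = 0.0161). Co-treated libraries overlapped the control range and LPS libraries lay below both (log2 fold change -1.47, SE 0.12 after LPS, adjusted p = 5.93e-08, and 1.36, SE 0.11 for co-treated against LPS, adjusted p = 3.81e-06). After LPS, Fos, Dusp1 and Nr4a1 fell with log2 fold changes of -1.68, -1.42 and -1.43 (adjusted p = 8.99e-06, 2.43e-06 and 1.65e-05). Arc, Junb and Dusp6 were higher in co-treated than in LPS libraries by 1.46, 0.84 and 0.79 (adjusted p = 1.54e-04, 0.00243 and 0.00243), as was Egr1, the most abundant of the list (0.67, adjusted p = 0.0106). The Junb call was lost in the bulb-poor libraries alone (adjusted p = 0.0919) and the Egr1 call with both indices as covariates (0.0953). In the bulb-poor libraries alone, 10 of the 24 were lower after LPS, where 4.78% of all genes were called and 0.71% were lower. In that subset 7 were higher with co-treatment than with LPS alone, where 0.197% of all genes were called and 0.0789% were higher. The half-site TGACG was in the promoter of 14 of the 18 activity-regulated genes with a window (among them Fos, Junb, Dusp1 and Nr4a1). By window it was in 17 of their 30, against 20.8% of all windows. The complete element was in 2 of these genes, Btg2 and Dusp1, and in 2 of the 30 windows, against 1.79%.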

How the data were processed

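Messenger RNA was measured in 19 libraries of medial prefrontal cortex. Per the labels' protocols, total RNA was extracted with TRIzol, poly(A) RNA was enriched with oligo(dT) beads and libraries were made by ligation with a stranded kit. The authors deposited a table of raw read counts, whole numbers for each gene. The submitters' processing notes name fastp, HISAT2, StringTie, RSEM and DESeq2, without versions. The counting tool's settings, its use of strand and the genome build are not given in the sources used here. Of 52029 gene identifiers shared with GENCODE M21 (GRCm38), 2.81% had the same start, so the table's coordinates were printed as deposited, and GENCODE M21 gave exon lengths only. Penk overlaps an antisense gene with at most 3 counts in any library, and no other member overlaps a listed gene. No 2 libraries of a group agreed within sampling noise (chi-square per degree of freedom of at least 2.47). A control replicate 3 was not analysed here.

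Testing of the counts used edgeR 4.0.16 (R 4.3.3) with TMM factors, the default filter on expression by group, and quasi-likelihood F tests with robust dispersion in 1 model of 19 libraries with group means. Two-sided p-values were corrected by Benjamini-Hochberg across the genes tested, and calls required an adjusted p below 0.05. The SE was the log2 change divided by the square root of F, without its sign. The bulb and striatal indices are means of log2 CPM with a prior count of 2, and bulb-poor libraries have Cdhr1 under 20 CPM. Alternatives were other library factors, no expression filter, 1 CPM in 4 libraries, the groups compared alone, a replicate block, the indices as covariates, the bulb-poor libraries, limma 3.58.1 (voom with sample weights), DESeq2 1.42.0, Cdhr1 in place of the bulb index and leaving out each library; 1 further setting is not reported here. The scripts were tested on simulated data. All 10 members were named, and of the other lists the most abundant gene and those called in LPS against control or co-treated against LPS, up to 4 per direction. Genes called in other comparisons were chosen after their values were seen. The members and lists were chosen with earlier results of these data known. Some genes are in 2 lists: Tacr1 (receptors and interneuron identity), Slc17a6 (excitatory identity and bulb genes) and Trh and Nmb (other neuropeptides and bulb genes). So are Avp, Oxt, Pmch, Hcrt, Pomc, Agrp and Gnrh1 (other neuropeptides and hypothalamic genes). Promoter sequences are RefSeq's on GRCm38.p6.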

Additional observations from a re-analysis of the deposited data

Results flagged for a closer look

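Npy in sedanolide replicate 1 stood apart from its group, at 75.1 CPM against 57.4 to 61.0 CPM in the other 4 libraries, a gap of 0.80 of the group's range. It was the 1 such value among 40 gene and group combinations of the 10 members, where chance flags about 1 in 20. No comparison called Npy with all libraries in the edgeR fit.

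The effect of LPS on Cort differed with and without sedanolide: the interaction was 1.11 on the log2 scale (edgeR, adjusted p = 0.0418). LPS alone gave -1.10 and LPS with sedanolide, against sedanolide, gave 0.0073. Sedanolide alone differed from control by -0.57 (edgeR, adjusted p = 0.0575). The adjusted p of the interaction over other settings ran up to 0.150, with the replicate number as a block. Its value over them and the left-out libraries ran from 0.95 to 1.28.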

How the results depend on the processing

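Library factors and expression filters changed 1 count of calls among the members, that for sedanolide against control. The share of all genes called, given in brackets, moved with the setting as well. Upper-quartile factors (5.11%) or a filter of 1 CPM in 4 libraries (6.52%) gave 1 in place of 0 (5.31%). So did the bulb index, alone (7.63%) or with the striatal index (18%), with Cort called each time. Limma-voom (24.8%) and DESeq2 (12.2%) gave 2. For LPS against control the count of 2 (10.9%) was 4 with both indices (20.6%) and 4 by limma-voom (Cort, Npy, Cartpt and Crh, 25.4%). For co-treated against LPS the count of 0 (1.97%) was 3 in a fit of the groups compared alone (4.31%) and 1 in bulb-poor libraries (0.197%). It was 4 by limma-voom (14.9%) and 2 by DESeq2 (4.97%). For co-treated against control the count of 2 (11.1%) was 1 with the groups compared alone (Cartpt, 8.09%) and 5 by limma-voom (26.9%). It was 1, Cort each time, with the bulb index (6.08%), with both indices (16%) and in bulb-poor libraries (3.46%). The interaction count of 1 (0.586%) was 4 by limma-voom (21.6%). The cause was not tested. Saa3, co-treated against LPS, turned from 0.0039 to -0.65 with both indices (adjusted p = 0.0461).

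Leaving out 1 library gave 1 to 3 calls for LPS against control (7.28% to 13.8% of all genes called) and 0 to 1 for sedanolide against control (0.54% to 7.82%). It gave 0 to 3 for co-treated against LPS (0.8% to 3.33%) and 0 to 3 for co-treated against control (4.88% to 16.1%). For the interaction it gave 0 to 2 (0.184% to 1.34%) and for the striatal slope 0 to 2 (0.0509% to 4.83%). The bulb index difference ran from -4.41 to -2.99 for co-treated against LPS and from -5.02 to -2.73 for co-treated against control, with adjusted exact permutation p-values of at least 0.0893 without any 1 control. Depth was least for Cartpt, with 33 to 201 counts in a library, but the SE did not follow the level: for LPS against control it was 0.52 for Penk and 0.18 for Cort, a lower gene.

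The replicate number as a block gave 1 call for co-treated against control (Cartpt, 5.37% of all genes called) and 0 for the interaction (0.18%). It moved no other count of members by more than 1.5 times. The numbers did not pair the samples: of 27 same-numbered pairs 5 correlated above 0.1 (median -0.054), and 1 of 19 libraries correlated best with its own number.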
